A study of Mus musculus with 12 samples.

Results

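The genes described here encode the subunits of heterotrimeric G proteins, the regulators of G protein signalling (RGS) and the enzymes that make and break down cyclic nucleotides. Members were chosen by symbol: every probe set with a single gene symbol in the platform annotation that starts with Gna, Gnb, Gng, Rgs, Adcy or Pde followed by the letter or digit of a family member. This gave 86 of the 12422 probe sets that are not controls, for 59 of the 8251 genes with a single symbol. They comprise 14 genes of alpha subunits (26 probe sets), 5 of beta subunits (7), 7 of gamma subunits (9), 13 RGS genes (20), 7 adenylyl cyclases (8) and 11 phosphodiesterases (13). A further pair of symbols fits the spelling but not the function. Pde4dip (2 probe sets) encodes a scaffold protein that binds a phosphodiesterase, and Gnasas1 (1 probe set) is an antisense RNA at the Gnas locus.

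A single adult animal of the mouse strain NMR-1 gave the RNA of all 3 tissues, liver, cortex and cerebellum, which was hybridised to 12 MG_U74Av2 arrays, on which several short oligonucleotides form a probe set for a transcript. Each tissue had 1 array made by the standard protocol from 5 µg RNA with a single linear amplification (1X) and 3 technical replicates made from 1 ng RNA with 3 linear amplifications (3X). RNA input, kit and number of amplifications differ together between 1X and 3X. No animal had a genetic change or a treatment, and the p-values below measure only the spread between arrays of a single mouse.

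A receptor that spans the membrane activates a G protein by exchanging GDP for GTP on the alpha subunit, which then parts from the beta and gamma subunits. Alpha subunits of the Gs type stimulate adenylyl cyclase, those of the Gi and Go type inhibit it or act through the freed beta and gamma subunits, and those of the Gq type activate phospholipase C beta. RGS proteins end the signal by speeding the hydrolysis of GTP, and phosphodiesterases break down cAMP and cGMP. Go is known as the most abundant G protein of the brain, whereas in liver the glucagon receptor acts through Gs and cAMP.

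Signals are log2 values per probe set, and each difference below is one of log2 signals, followed by the standard error (SE) that limma gives. Calls were made at a limma adjusted p under 0.05 (Benjamini-Hochberg over 12422 probe sets). The median of all probe sets in a group lay between 3.44 and 3.48. A group mean at or below it is called dim here, because the files hold no detection call, and no fold is given for a difference that involves a dim group. By that measure 34 of the 86 probe sets were dim in all 6 groups and 35 were above the median in all of them, against 4730 and 5049 of all 12422. Signals of different probe sets are not comparable with each other, so each gene is followed across arrays only. Marker lists separated the tissues, though not at every gene. The mean signal of 8 hepatocyte markers was 8.03 to 8.95 on the 3X liver arrays and 3.25 to 3.37 on those of cortex, and that of 5 granule cell markers was 4.88 to 5.19 in cerebellum and 3.54 to 3.73 in cortex. The 8 hepatocyte markers were all called higher in liver. The neuronal marker Snap25 stood at 2.99 on the 1X liver array and at a mean of 6.17 on the 3X liver arrays. Brain markers not called between liver and brain at 3X included Syt1, Syp, Nefl, Gfap, Mobp, Mag, Cnp, Cbln1 and Zic2. The granule cell marker Zic2 was not called between cortex and cerebellum either (0.035). Kidney markers stood apart in cerebellum, with a mean over 6 genes of 5.07 to 5.15 at 3X, against 3.82 to 3.96 in the other tissues.

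**Figure D1:**
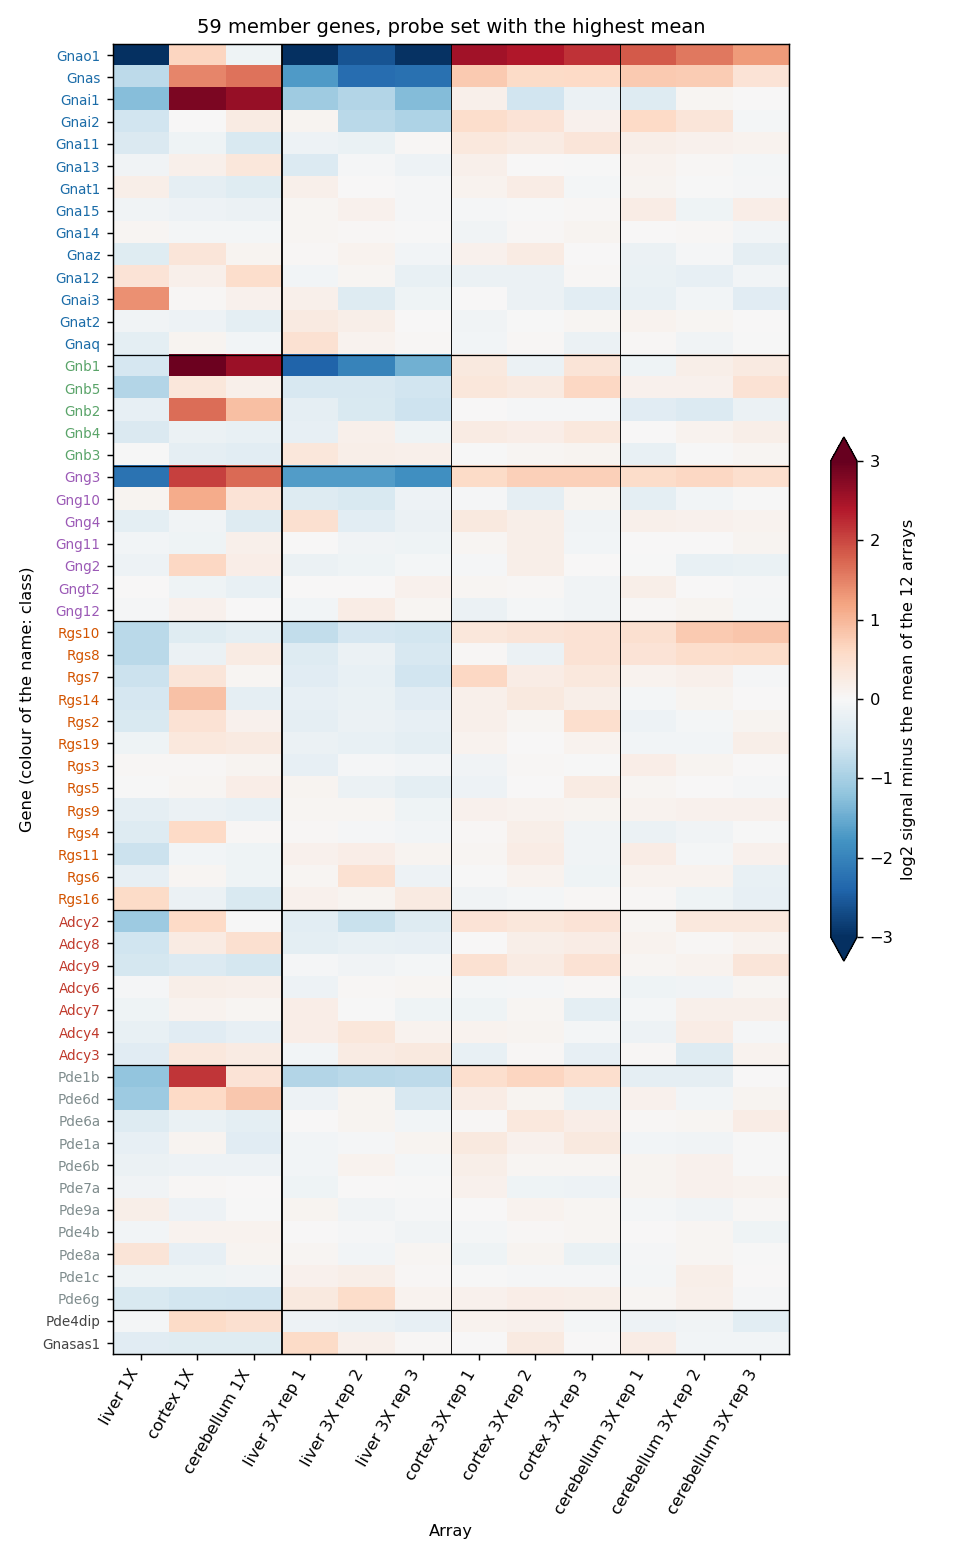
Log2 signal of the 59 genes (rows) on the 12 arrays (columns), at the probe set with the highest mean, each row shown as the difference from its own mean over the arrays (colour scale in log2 units). Blocks from the top are alpha, beta and gamma subunits, RGS genes, adenylyl cyclases, phosphodiesterases, and the pair of other symbols. Gnao1, Gnas, Gnb1 and Gng3 are low on liver arrays and high on brain arrays, most other rows are pale, and several brain signals are higher at 1X than at 3X.

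Between liver and brain on the 3X arrays, subunits of G proteins and RGS genes were among the members that differed, and with a single exception they were lower in liver. Of the 86 probe sets 26 were called lower in liver and 1 higher, in comparison with 12.3% lower and 8.17% higher among all probe sets tested (20.4% called in all). Counted by gene, at the probe set with the highest mean signal, 19 of 59 genes were lower and none was higher. That mean runs over all 12 arrays, most of them from brain, so the choice is not independent of the tissues compared. It leaves out the probe set called higher, which belongs to Rgs16. For 16 of the 19 all liver arrays lay below all brain arrays (9.89% of all probe sets were called lower without overlap). They were 5 of 14 alpha, 3 of 5 beta and 1 of 7 gamma subunits, 6 of 13 RGS genes, 3 of 7 adenylyl cyclases and 1 of 11 phosphodiesterases. The median difference of the 59 genes was -0.11, and that of all probe sets was 0.01. The mean signal of 7 neuronal markers, 5 of them above the median in liver, was 5.05 to 5.45 on the liver arrays and 6.07 to 6.71 on the brain arrays, and 4 of the 7 were called lower in liver. The mean of 5 astrocyte markers was 4.72 to 4.79 in liver and 5.53 to 5.87 in brain, with 4 called, and that of 5 oligodendrocyte markers 4.82 to 4.95 and 5.18 to 5.72, with 2 called. The part of these markers in the differences was not tested. In a whole tissue, fewer cells of a type and less RNA per cell cannot be told apart.

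Gnao1, the alpha subunit of Go, differed most. On the 3X arrays of liver its signal was 2.90, 3.32 and 2.94. The cortex arrays reached 8.43, 8.32 and 8.08, and those of cerebellum 7.75, 7.51 and 7.20. The liver arrays were all dim and lay far below every brain array. The difference was -4.83 ± 0.14 (SE, n = 3 liver and 6 brain arrays; adjusted p = 2.17e-09 in the limma fit), and the single 1X arrays gave -4.01. This value belongs to the brightest of 5 probe sets for the gene. The second-brightest one was lower by -1.09 ± 0.11, and the other 3, dim in every tissue at 3X, were not called, with differences from -0.26 to 0.08.

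Gnas encodes the alpha subunit of Gs. Its liver signals were 4.68, 4.11 and 4.15, against 7.17, 6.96 and 6.98 in cortex and 7.17, 7.14 and 6.79 in cerebellum. Cortex and cerebellum overlapped, and liver lay below both by 2.72 ± 0.14 (6.59-fold; limma adjusted p = 2.05e-07). The locus gives rise to several overlapping transcripts. The name of the called probe set ends in a letter by which the platform marks probes that may bind other transcripts. The 2 other Gnas probe sets, whose names do not, differed by 0.17 and -0.06 and were not called. The antisense transcript Gnasas1 was dim in all 6 groups. Among the inhibitory alpha subunits, the dim Gnai1 stood at 1.92, 2.12 and 1.69 in liver, 3.14, 2.40 and 2.82 in cortex and 2.6, 3.04 and 3.0 in cerebellum. All liver arrays lay below the brain arrays, by -0.93 ± 0.17 and, at its dimmer probe set, by -1.24 ± 0.10. Gnai2 was lower by -0.89 ± 0.22, with an overlap of the arrays: liver replicate 1 (8.86) lay above the lowest cerebellum array (8.71) and apart from the other liver arrays (7.97 and 7.85). These values belong to the brightest of 3 Gnai2 probe sets. The second-brightest one was lower by -1.41 ± 0.23 without overlap, and the third gave -0.11 ± 0.13 and was not called. Gnai3 and Gnaz were not called.

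Members of the Gq type were mostly dim. Gna11 was lower in liver at both of its probe sets, by -0.33 ± 0.07 and -0.82 ± 0.10. Gnaq, Gna14 and Gna15 were not called, with differences of 0.25, 0.03 and 0.01. Gna12 and Gna13, which form a family of their own, differed by 0.07 and -0.24 and were not called either. No alpha subunit was called higher in liver.

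The beta and gamma subunits form a tight pair that anchors the alpha subunit at the membrane. Gng3, a gamma subunit known from neurons, stood at 5.13, 5.14 and 4.97 in liver. It stood at 7.39, 7.53 and 7.53 in cortex and at 7.37, 7.43 and 7.32 in cerebellum, so the groups of liver and brain arrays were far apart and narrow. The difference was -2.35 ± 0.07 (5.09-fold; limma adjusted p = 4.02e-09). None of the other 6 gamma genes was called, including Gng10 (-0.24 ± 0.10), the widely expressed Gng12 (0.11 ± 0.08) and Gng11 (-0.11 ± 0.08). The dim Gngt2, the gamma subunit of cone transducin, gave 0.03.

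Gnb1 was dim in liver, with signals of 1.71, 2.12 and 2.68, and reached 4.42, 3.95 and 4.50 in cortex and 4.0, 4.30 and 4.38 in cerebellum. It was lower in liver by -2.09 ± 0.20 (limma adjusted p = 2.59e-05). The second-brightest probe set gave -0.95 ± 0.09 and the third, at -0.21, was not called. Gnb5 is the unusual beta subunit that pairs with the R7 family of RGS proteins in place of a gamma subunit. It stood at 6.51, 6.51 and 6.41 in liver, 7.31, 7.24 and 7.61 in cortex and 7.11, 7.12 and 7.41 in cerebellum, a difference of -0.82 ± 0.10 (1.77-fold; limma adjusted p = 0.000178). Gnb2 was lower by -0.28 ± 0.09 with overlapping arrays, near the threshold (adjusted p = 0.0487), while Gnb3 and Gnb4 were not called.

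The sequences next to the start sites of members with the largest differences between liver and brain are shown here. Their common direction follows from that choice, and a shared control of these genes was not tested. Of the 6 genes that were lower in liver by at least 1 on the log2 scale, 4 have a single promoter window in the RefSeq table of assembly GRCm38.p6, which runs from 250 bases before to 50 bases after the start. They lie at chr8:93810588-93810887 on the plus strand (Gnao1), chr19:8839197-8839496 on the minus strand (Gng3), chr4:155491111-155491410 on the plus strand (Gnb1) and chr7:128418123-128418422 on the minus strand (Rgs10). Capitals mark matches, on either strand, to the GC box GGGCGG, the cAMP response element TGACGTCA or the TATA box TATAAA.
Gnao1: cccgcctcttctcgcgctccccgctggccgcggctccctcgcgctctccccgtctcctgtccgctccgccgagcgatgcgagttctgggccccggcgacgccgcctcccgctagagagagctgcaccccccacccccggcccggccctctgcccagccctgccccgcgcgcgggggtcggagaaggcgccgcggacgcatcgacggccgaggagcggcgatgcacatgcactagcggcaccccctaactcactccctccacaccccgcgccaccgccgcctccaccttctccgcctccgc
Gng3: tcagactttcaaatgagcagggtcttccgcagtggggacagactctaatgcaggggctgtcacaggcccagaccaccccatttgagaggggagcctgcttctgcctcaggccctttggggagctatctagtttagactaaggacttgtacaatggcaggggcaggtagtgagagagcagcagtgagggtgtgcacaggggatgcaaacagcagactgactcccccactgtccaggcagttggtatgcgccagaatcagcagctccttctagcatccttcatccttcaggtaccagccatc
Gnb1: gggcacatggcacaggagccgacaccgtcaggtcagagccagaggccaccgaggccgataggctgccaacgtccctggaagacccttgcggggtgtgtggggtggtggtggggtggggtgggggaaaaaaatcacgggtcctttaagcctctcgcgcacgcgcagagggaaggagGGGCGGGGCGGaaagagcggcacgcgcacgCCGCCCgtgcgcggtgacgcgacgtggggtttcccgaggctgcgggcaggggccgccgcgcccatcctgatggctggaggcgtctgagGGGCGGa
Rgs10: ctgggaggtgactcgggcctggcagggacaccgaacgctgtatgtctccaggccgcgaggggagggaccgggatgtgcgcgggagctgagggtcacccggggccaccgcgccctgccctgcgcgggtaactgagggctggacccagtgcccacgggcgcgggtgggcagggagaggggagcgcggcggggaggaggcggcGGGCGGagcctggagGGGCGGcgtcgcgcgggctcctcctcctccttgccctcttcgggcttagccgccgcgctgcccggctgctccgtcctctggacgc
The Gnb1 window held 4 GC boxes, a pair of them overlapping by a base, and the Rgs10 window held 2. Those of Gnao1 and Gng3 held none of these letters. Windows were found for 43 of the 59 genes, 67 windows in all. The GC box was in 38.8% of them and in 35.7% of all 32851 windows of the table. Counted by gene, it was in at least 1 window of 24 of the 43 genes (55.8%), against 38.2% of all genes of the table; these shares were not tested. TATAAA was in 16.4% against 13.6%, and TGACGTCA in 0 of 67 against 1.79%. These are letter matches, not binding sites.

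**Figure D2:**
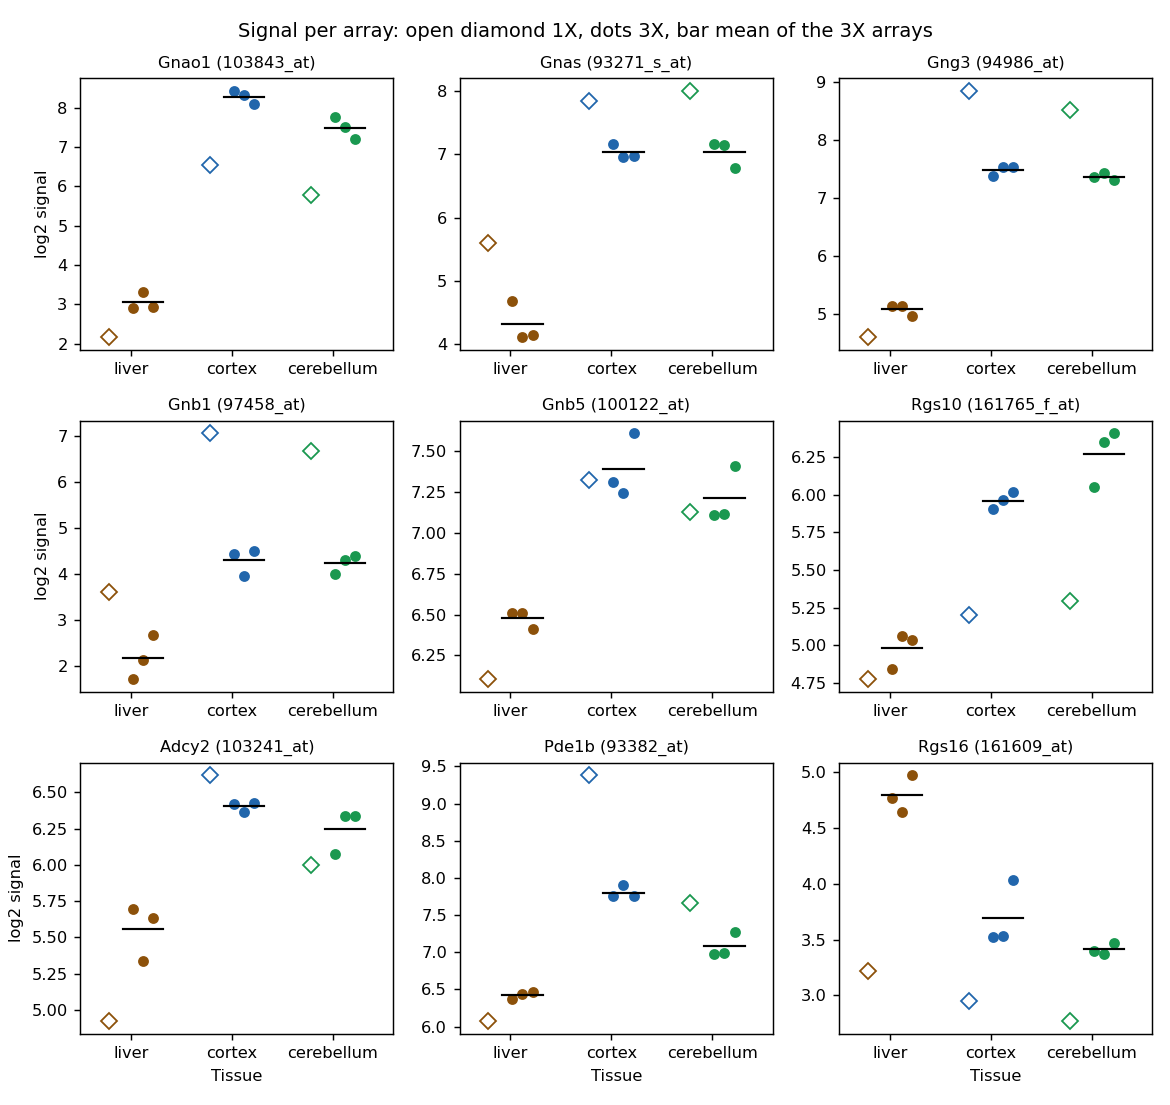
Log2 signal (vertical axis) of 9 probe sets in liver, cortex and cerebellum. Open diamonds are the single 1X arrays, dots the 3X arrays and bars their means; the vertical scales differ. The 3X liver dots of Gnao1, Gnas, Gng3, Gnb1, Gnb5, Rgs10, Adcy2 and Pde1b lie below all brain dots, and those of the dimmer Rgs16 probe set above them.

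Among the RGS genes, each taken at its probe set with the highest mean, Rgs10 differed most. It acts on Gi-type alpha subunits and is known from neurons and microglia. Its signals were 4.84, 5.06 and 5.04 in liver, 5.90, 5.96 and 6.02 in cortex and 6.05, 6.35 and 6.41 in cerebellum. The difference was -1.14 ± 0.09 (2.20-fold; limma adjusted p = 9.67e-06). Its dimmest probe set was lower by -0.35 ± 0.11 and the remaining one was not called (0.23 ± 0.08). The mean signal of 6 macrophage and microglial markers, for comparison, was 4.33 to 4.43 in liver and 4.09 to 4.30 in the brain regions. Of these markers Clec4f alone was called, higher in liver by 1.11 ± 0.14. The others differed by -0.08 to 0.11.

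Rgs7 of the R7 family was dim throughout at 3X but separated the tissues. Its signals were 2.61, 2.71 and 2.36 in liver, 3.56, 3.17 and 3.26 in cortex and 3.05, 3.09 and 2.91 in cerebellum (-0.61 ± 0.11; limma adjusted p = 0.00205). The other members of that family, Rgs6, Rgs9 and Rgs11, were not called. Rgs8, which is known from Purkinje cells, was lower in liver by -0.65 ± 0.13, although the highest liver array (5.54) equalled the lowest cortex array. The dim Rgs14 stood at 2.51, 2.56 and 2.40 in liver and between 2.70 and 3.03 on the brain arrays, again without overlap (-0.37 ± 0.07). Rgs2 (-0.34 ± 0.10) and Rgs19 (-0.28 ± 0.08) were lower as well, Rgs19 at 1 of its 3 probe sets. Rgs3, Rgs4 and Rgs5 were not called. The names of the Rgs8 probe set and of the brightest Rgs10 one end in a letter by which the platform marks probes that may bind other transcripts too. So do those of the called Gnas and Gnai2 probe sets, the second-brightest ones of Gnao1 and Gnb1, and the dimmer one of Pde1a. The name of the brightest Rgs19 probe set ends in the letter r, which is not read that way here.

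Rgs16, which limits signalling through Gi and Gq, held the only probe set called higher in liver. By the mean over 12 arrays it was the dimmer of 2 (3.72 against 3.79), so the other probe set represents the gene in the counts. On the 3X liver arrays the called one was the brighter (mean of 4.80 against 3.94). At this probe set the liver arrays were at 4.77, 4.64 and 4.98. Those of cortex were at 3.52, 3.53 and 4.04, and those of cerebellum at 3.40, 3.37 and 3.46. Every liver array exceeded every brain array, by 1.24 ± 0.12 on average (limma adjusted p = 3.40e-05). The brighter Rgs16 probe set showed the same order without a call (0.23 ± 0.08; adjusted p = 0.0781). On the 1X arrays the called probe set was dim in all tissues, with 3.22 in liver, 2.95 in cortex and 2.77 in cerebellum, a difference of 0.36. The brighter one stood at 4.37, 3.62 and 3.34, a difference of 0.88.

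Of the 7 adenylyl cyclases 3 were lower in liver. Adcy2, an isoform that beta and gamma subunits stimulate, was lower in liver by -0.77 ± 0.10 (1.70-fold; limma adjusted p = 0.000214), from 5.70, 5.34 and 5.63 there to between 6.07 and 6.43 on the 6 brain arrays. The dim Adcy8, which calcium and calmodulin stimulate, stood at 2.65, 2.70 and 2.68 in liver and between 2.95 and 3.15 on the brain arrays, without overlap (-0.37 ± 0.07). Adcy9 was lower by -0.34 ± 0.09. Adcy3, Adcy4, Adcy6 and Adcy7 were not called, with differences from 0.01 to 0.26.

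Of the 11 phosphodiesterase genes Pde1b alone was called by gene. It encodes a calmodulin-dependent enzyme that breaks down cAMP and cGMP. Liver stood at 6.37, 6.44 and 6.46, cortex at 7.76, 7.90 and 7.75 and cerebellum at 6.98, 6.99 and 7.27, a difference of -1.02 ± 0.08 (2.03-fold; limma adjusted p = 9.23e-06). The related Pde1a was lower in liver at its dimmer probe set (-0.49 ± 0.12, with overlapping arrays) and not at the brighter one (-0.10 ± 0.07), and Pde1c was not called. The phosphodiesterases Pde4b, Pde7a, Pde8a and Pde9a lay between -0.07 and 0.05. The 7 genes of the photoreceptor cascade, Gnat1, Gnat2, Gnb3, Gngt2, Pde6a, Pde6b and Pde6g, gave no call, and 5 of them were dim in all 6 groups. Of 5 photoreceptor markers (Sag, Nrl, Crx, Rom1 and Opn1sw) none was above the median at 1X, and 1, Crx, was above it at 3X. Pde6d, a carrier of prenylated proteins that takes its name from the same enzyme, was not called at 3X (-0.22 ± 0.13).

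The 1X arrays, which entered none of these tests, gave the sign of the 3X difference for 27 of the 27 called probe sets, against 92.8% of all probe sets called between liver and brain. With 1 array per tissue this was not tested. The difference was larger in size at 1X for 18 of the 27, against 57.2% of all probe sets called. Gng3 differed by -4.09 at 1X and -2.35 at 3X, Gnb1 by -3.26 and -2.09, and Gnai1 by -3.98 and -0.93. The reverse held for Gnao1 (-4.01 and -4.83) and Rgs10 (-0.47 and -1.14).

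**Figure D3:**
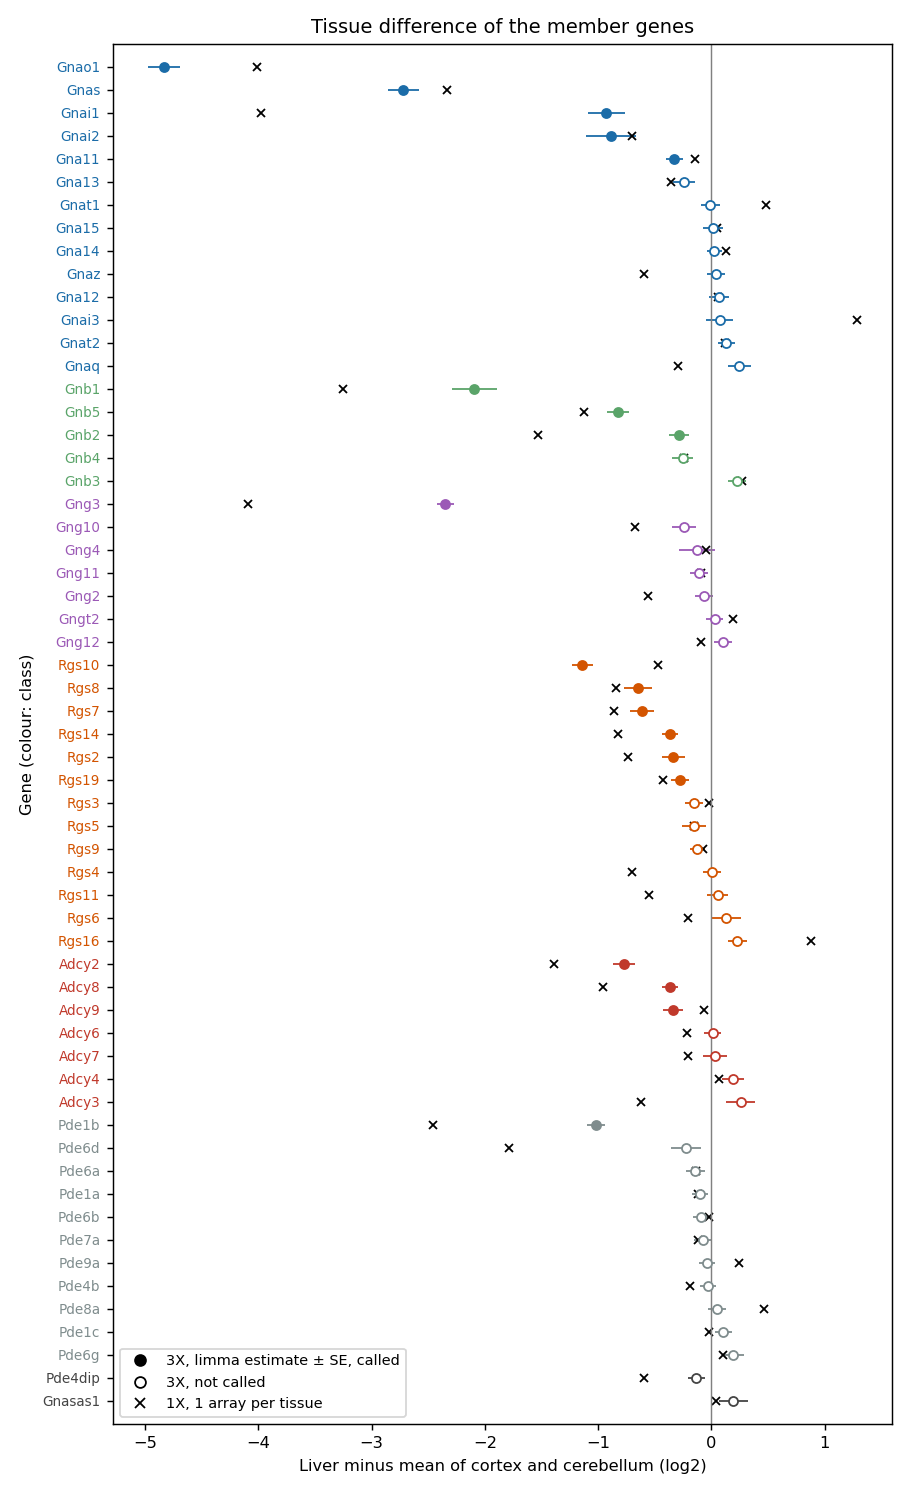
Difference of liver from the mean of cortex and cerebellum (horizontal axis, log2) for the 59 genes, at the probe set with the highest mean. Circles are limma estimates from the 3X arrays with their SE, filled where called, and crosses are the single 1X arrays. All filled circles lie left of 0, from -4.83 for Gnao1 to -0.28 for Rgs19, and the crosses of Gng3, Gnb1, Gnai1 and Pde1b lie further left than the circles.

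Cortex and cerebellum differed in few members. At 3X, 3 of the 86 probe sets were called, all higher in cortex, in comparison with 0.435% of all probe sets called higher in cortex, 0.628% called lower and 1.06% called in all. Pde1b was higher in cortex by 0.72 ± 0.10 (1.65-fold; 3 against 3 arrays; limma adjusted p = 0.00407), with the cortex arrays at 7.75 to 7.90 and those of cerebellum at 6.98 to 7.27. On the 1X arrays it stood at 9.38 in cortex and 7.66 in cerebellum. In an additive fit of all 12 arrays the difference was 0.97 but was not called (adjusted p = 0.181).

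The dimmer Gnai1 probe set stood at 3.48, 3.71 and 3.57 in cortex and 2.78, 2.84 and 2.73 in cerebellum (0.81 ± 0.12; limma adjusted p = 0.00705). The brighter Gnai1 probe set gave -0.09 ± 0.19. That rank comes from the mean over 12 arrays. On the 3X arrays this probe set was dim in both regions, with means of 2.79 and 2.88. The called one stood above the median in cortex, with a mean of 3.59, and was dim in cerebellum. The mean of both probe sets differed by 0.36 (adjusted p = 0.296), and with all 12 arrays the call was lost too (0.64; adjusted p = 0.0618). Pde1a, at its dimmer probe set, which was dim in both regions, was higher in cortex by 0.72 ± 0.14 (adjusted p = 0.0361). That call was lost without liver replicate 2 (adjusted p = 0.0571) and without any one of the cortex or cerebellum arrays (0.0557 to 0.159). Gnao1 missed the threshold, with 8.08 to 8.43 in cortex and 7.20 to 7.75 in cerebellum (0.79 ± 0.16; adjusted p = 0.0502). It was called in 5 of the alternatives with all replicates, with an adjusted p of 0.0179 to 0.0421.

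No member was called higher in cerebellum. The most negative difference was that of Rgs8 (-0.40 ± 0.15; adjusted p = 0.41), with 5.77, 5.54 and 6.17 in cortex and 6.13, 6.26 and 6.28 in cerebellum. The 3 probe sets called at 3X had the same sign on the 1X arrays, as did 99.2% of all probe sets called. Beside these members, the mean signal of 3 striatal markers (Penk, Drd2 and Tac1) was 4.72 to 5.07 on the 3X cortex arrays and 3.97 to 4.23 on those of cerebellum. Of these Penk alone was called (1.87 ± 0.20), while Drd2 (0.12) and Tac1 (0.28) were not. The mean of 6 forebrain markers was 4.25 to 4.34 in cortex and 3.12 to 3.31 in cerebellum, and Camk2a and Neurod6 among them were not called. The part of these cell types and of the kidney markers in the differences was not tested.

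The 3X procedure moved the members in both directions relative to 1X. In the additive model over 12 arrays, 47 of the 86 member probe sets passed the test, of which 30 rose and 17 fell at 3X, in comparison with 37.5% higher and 19.5% lower among all probe sets (56.9% in all). The median of the members was 0.07, and that of all probe sets 0.12; quantile normalization moved the latter to 0.08 and centring the arrays on their medians to 0.13, and small rises are to be read against these. Divided at the median of the mean over 12 arrays, 12 of the 44 brighter member probe sets rose and 11 fell, against 37.2% and 22.8% of all brighter probe sets. Of the 42 dimmer ones 18 rose and 6 fell, against 37.7% and 16.2%. Divided by the 1X mean, which is itself part of the difference, the counts were 10 and 13 for the brighter and 20 and 4 for the dimmer. In shares these were 22.7% and 29.5% of the brighter members, against 31.2% and 29.2% of all brighter probe sets. Of the dimmer members they were 47.6% and 9.52%, against 43.7% and 9.79% of all dimmer probe sets. The count of 47 fell to 31 without the cerebellum 1X array, and to 25 with the 3 tissues as units. In the latter fit Gnb2, Gng10, Gnai3, Pde4dip, Rgs19, Rgs10 and Gnat2, described next, were not called (adjusted p from 0.0545 to 0.161).

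Gnb1 fell most, from 3.62, 7.07 and 6.68 at 1X in liver, cortex and cerebellum to a 3X range of 1.71 to 2.68, 3.95 to 4.50 and 4.0 to 4.38 (-2.22 ± 0.25; limma adjusted p = 4.48e-05). Its other 2 probe sets fell by 2.48 and 0.78. Gnb2 fell by 1.04 ± 0.20 and Gnas by 1.03 ± 0.14 (2.04-fold), the latter from 5.60, 7.85 and 8.01. The gamma subunit Gng10 fell by 0.71 ± 0.14, from 3.84, 4.86 and 4.17, and Gnai3 by 0.68 ± 0.20. The Gnai3 fall rests on liver, where the 1X array was at 3.87 and the 3X arrays at 2.12 to 2.65; without that 1X array it was -0.27 and not called (adjusted p = 0.105). Gna12 fell by 0.49 ± 0.09 and Pde4dip by 0.44 ± 0.09. Rgs19 fell by 0.20 ± 0.07 at its brightest probe set, near the threshold (adjusted p = 0.0346). That call was lost without the cortex or the cerebellum 1X array (0.136 and 0.153), and without liver replicate 3, cortex replicate 2 or cerebellum replicate 1 or 2 at 3X (0.0510 to 0.0547).

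Gnao1 rose most, from 2.16, 6.55 and 5.79 at 1X to means of 3.05, 8.28 and 7.49 at 3X (1.44 ± 0.17; limma adjusted p = 7.00e-05). At all of its 5 probe sets the estimate was above 0, and 3 were called. Pde6g, the inhibitory subunit of the photoreceptor phosphodiesterase, rose by 0.71 ± 0.09 with all group means dim, from 2.52 to 2.63 on the 1X arrays to between 3.05 and 3.64 on the 3X arrays. Adcy9 rose by 0.66 ± 0.09 (1.58-fold), from 7.5, 7.62 and 7.51 to means of 7.97, 8.41 and 8.21. Rgs10 rose by 0.65 ± 0.13, Gnasas1 by 0.48 ± 0.12 and Gna11 by 0.45 ± 0.07. Smaller rises, of 0.25 to 0.39, with the 1X arrays below the 3X arrays in every tissue, were those of Pde6a, Gnb4, Adcy4, Rgs9, Gnb3 and Gnat2. Rgs11 (0.38) and Rgs8 (0.34) rose with overlapping arrays. Rgs9 (0.12; adjusted p = 0.0871) and Gnb3 (0.12; adjusted p = 0.180) were no longer called after quantile normalization, nor was Gnat2 without the cerebellum 1X array (0.20; adjusted p = 0.0806). Of the 7 photoreceptor genes 5 rose and none fell, beside 37.5% and 19.5% of all probe sets, and 5 of the 7 were dim in every group. Of all dimmer probe sets by the 1X mean, 43.7% rose and 9.79% fell.

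**Figure D4:**
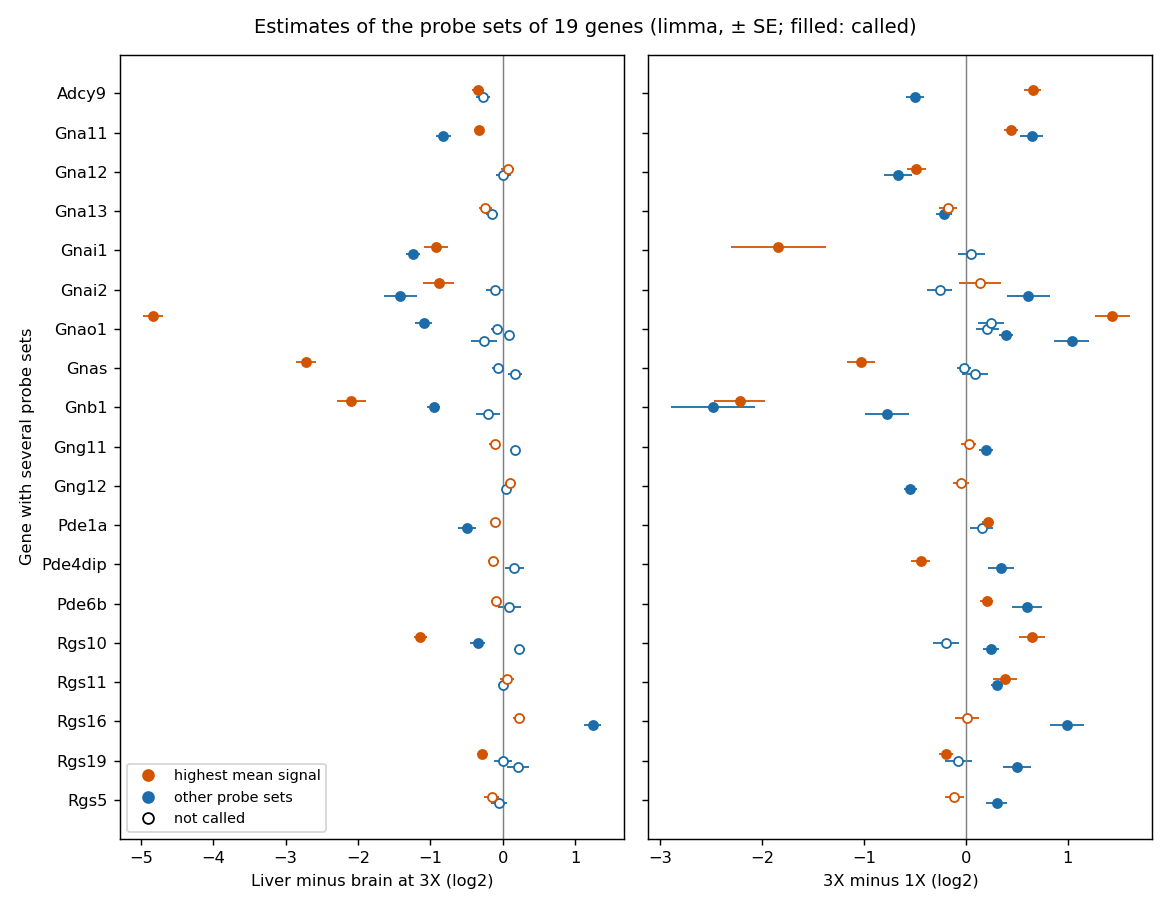
Limma estimates with SE (horizontal axes, log2) for each probe set of the 19 member genes with several probe sets, for liver minus brain at 3X (left) and 3X minus 1X (right). Orange marks the probe set with the highest mean and blue the others, filled where called. In the right panel Adcy9, Pde4dip and Rgs19 have filled points on both sides of 0, which occurs for no gene in the left panel.

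Probe sets of the same gene did not all give the same call between 1X and 3X, and the difference between them was not tested. Of the 19 genes with several probe sets, 3 had calls in both directions, 5 were called the same way at all of theirs, and 12, Rgs19 of the first 3 among them, were called at some only. The adenylyl cyclase gene Adcy9 rose at its bright probe set and fell by 0.50 ± 0.09 at the dim one; the mean of both was 0.08 and not called (adjusted p = 0.389). Pde4dip fell by 0.44 and rose by 0.34, and Rgs19 fell by 0.20 and rose by 0.50. Between liver and brain no gene had calls in both directions, 2 were called at all of their probe sets (Gna11 and Gnai1), and 8 at none.

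The effect of the procedure depended on the tissue for 10 of the 86 probe sets, in a moderated F test of the interaction (10.4% of all probe sets were called). In this test the lone 1X array of a tissue is assumed to vary like the 3X replicates. For 8 of the 10 the change was more negative in both brain regions than in liver, the exceptions being Rgs14 and Gnai3. The share of this direction among all probe sets called was not counted, so it is not shown to be particular to the members. The second-brightest Gnb1 probe set fell by 0.60 in liver, by 3.53 in cortex and by 3.32 in cerebellum (limma adjusted p = 2.18e-05). The brighter Gnai1 probe set fell from 5.80 to a mean of 2.79 in cortex and from 5.59 to 2.88 in cerebellum, while liver, dim throughout, went from 1.71 to 1.91 (adjusted p = 0.000411). Gng3 fell by 1.37 and 1.15 in the brain regions and stood 0.48 higher in liver (adjusted p = 8.43e-05). Pde1b fell by 1.58 in cortex and 0.59 in cerebellum and stood 0.35 higher in liver (adjusted p = 0.000254). For Gnb2 the changes were -0.21 in liver, -1.69 in cortex and -1.22 in cerebellum (adjusted p = 0.00204).

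**Figure D5:**
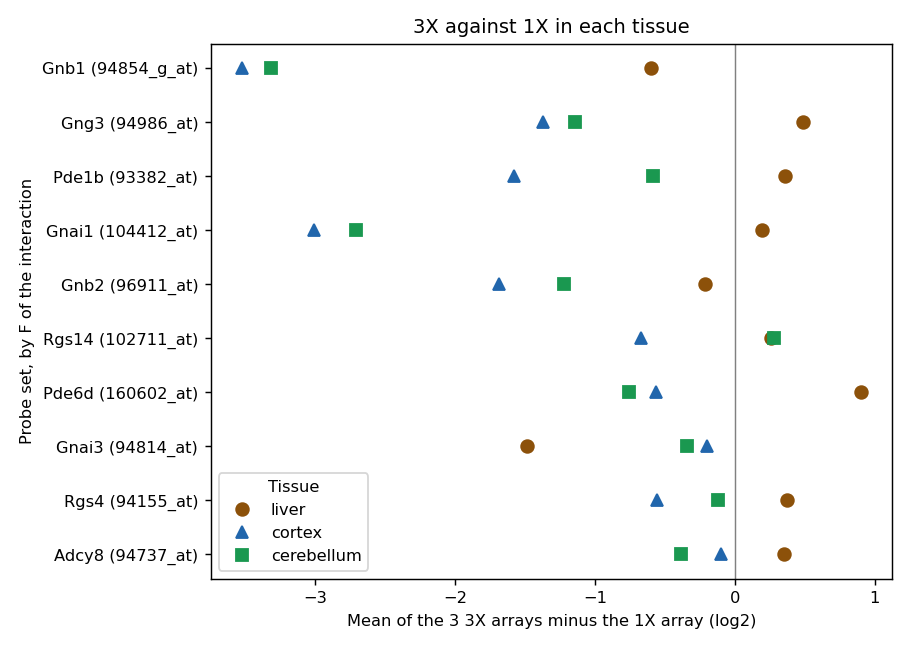
Mean of the 3X arrays minus the 1X array (horizontal axis, log2) in liver, cortex and cerebellum for the 10 probe sets called in the interaction test, ordered by F. Cortex and cerebellum lie near each other and left of liver for Gnb1, Gng3, Gnai1, Gnb2 and Pde6d, and liver lies left of both for Gnai3.

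Other genes of these pathways were followed through lists of receptors, effectors and modulators. Of 68 measured receptor genes 3 were called higher in liver and 6 lower (13.2% in all, against 20.4% of all probe sets), with a median difference of 0.025. The glucagon receptor Gcgr was higher in liver by 0.84 ± 0.15 at 3X and by 2.10 at 1X. The GABA-B receptor subunit Gabbr1 was lower by 1.52 ± 0.10 and the neurotensin receptor Ntsr2 by 1.00 ± 0.10. Of 35 genes for kinases, phospholipases and other effectors 2 were higher and 3 lower (14.3%), with a median of -0.01. The largest differences were those of the protein kinase A subunits Prkar1a (-2.60 ± 0.14) and Prkacb (-2.20 ± 0.07), whose 1X differences were -3.34 and -2.67. Of 13 genes for receptor kinases, arrestins and other modulators 4 were lower (30.8%) and none was higher. Between cortex and cerebellum 1 gene of these 116 was called, the Purkinje cell marker Pcp2, whose product acts on Gi and Go alpha subunits, at -0.93 ± 0.12. Between 1X and 3X, 40 of the 68 receptor genes rose (58.8%) and none fell, beside 37.5% and 19.5% of all probe sets. Many of these receptor genes were dim, and the list was not divided by level. Of all dimmer probe sets by the 1X mean, 43.7% rose and 9.79% fell. By the mean over 12 arrays these shares were 37.7% and 16.2%. Of the 35 effector genes 14 rose and 9 fell, among the latter Prkar1a (-2.54 ± 0.18) and the catalytic subunit Prkaca (-1.47 ± 0.24), and of the 13 modulators 6 rose and 1 fell.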

How the data were processed

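The authors deposited log2 signals per probe set; RMA is named in the submitters' processing notes, and its version is not given in the sources. That the log base is 2 was read from the range of the values, and the number of RMA runs behind the table is unknown. RMA corrects background and brings the probe distributions of arrays together, which removes differences in total signal. Differences were fitted with limma 3.58.1 in R 4.3.3 (two-sided) on the 12422 probe sets that remained without the 66 controls. Liver against the mean of both brain regions and cortex against cerebellum came from a fit of the 9 3X arrays, 3X against 1X from an additive model with tissue over 12 arrays, and its dependence on tissue from 6 group means. Of the matching probe sets, 1 with several symbols was left out. RefSeq held all 86 gene identifiers. The names of 14 members end in an added letter, and letters other than r mark probes able to bind other transcripts. For genes with several probe sets, the one with the highest mean over 12 arrays represented the gene. The genes described, by array or as ranges and differences, were, per comparison, up to 12 member genes in each direction by size among those called without overlap of the compared arrays (for 3X against 1X, every tissue's 1X array above, or every one below, its 3X arrays), and up to 6 by F in the interaction. Further genes and probe sets were chosen after their values were seen. Members, lists, tests and alternatives were chosen with earlier results of these data known. The scripts were tested on simulated data. For arrays, their number limits the precision.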

Additional observations from a re-analysis of the deposited data

Results flagged for a closer look

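For 10 member probe sets the change from 1X to 3X differed between the tissues in the moderated F test of limma, of which 5 are described above with their values by tissue. Their F values were 117 for the second-brightest Gnb1 probe set, 71.1 for Gng3, 50.5 for Pde1b, 43.3 for the brighter Gnai1 probe set and 26.9 for Gnb2. The other 5 had smaller F values and were dim in most groups. Rgs14 (F = 22.1) changed by 0.26 in liver, -0.67 in cortex and 0.28 in cerebellum, and Pde6d (F = 18.2) by 0.90, -0.57 and -0.76. Gnai3 (F = 13) was the member that fell most in liver, by 1.49, against 0.20 and 0.34 in the brain regions. Rgs4 (F = 12.9) changed by 0.37, -0.56 and -0.12, and the adenylyl cyclase Adcy8 (F = 10.8) by 0.35, -0.10 and -0.38. Each of these values rests on a single 1X array per tissue. Groups of 3 arrays or fewer were not searched for outlying arrays.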

How the results depend on the processing

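The numbers of called members kept within 1.5 times of the reported ones under most alternatives. Restricted to probe sets above the median level, 17 members were called between liver and brain (44 tested), 23 between 3X and 1X and 3 in the interaction. Between 3X and 1X, a mean per gene gave 29 called of 59 genes and the 3 tissues as units gave 25. The 6 brain arrays alone gave 5 calls between cortex and cerebellum. The lower counts of the level filter and of the mean per gene come with fewer tested rows, and the cause of the others was not tested. Leaving out an array in turn gave 22 to 27 calls for liver against brain, 2 to 4 for cortex against cerebellum, 31 to 45 for 3X against 1X and 9 to 14 for the interaction. With the mean of their probe sets, the 3X change of Rgs19 (0.078) and that of the dim Adcy9 probe set (0.079) turned sign. The 12 member genes with the largest called differences between liver and brain without overlap kept their sign and call under every alternative that tested them. The probe sets of Gnas and Rgs10 were not tested when only names without such a letter were kept. Those of Gnai1, Rgs7, Rgs14 and Adcy8 were not tested when only probe sets above the median level were kept. Correlations of same-numbered 3X arrays ran from -0.10 to 0.34 and those of other pairs from -0.36 to 0.25. The 3 pairs of replicate 3 lay at 0.29 to 0.34, but not every same-numbered pair exceeded 0.1, so the numbers were not taken as a pairing. With a replicate block, 26 members were called between liver and brain and 4 between cortex and cerebellum, Gnao1 among them. Such a block could not be fitted for 3X against 1X, whose 1X arrays carry no number. The signs at 1X, an alternative chosen after seeing the data, held under both other scalings for 27 of 27 and 3 of 3 called probe sets. The scanner files were not used here, so dim signals have no detection call.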
